A study of Arabidopsis thaliana with 6 samples.

Results

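The transcripts described here are those of 10 genes that carry the ethylene signal in Arabidopsis thaliana, from the hormone receptors to the F-box proteins that end the response. They were taken by gene identifier from a table of 33602 genes, of which 33323 were nuclear, and all 10 were found. The receptors were ETR1 (AT1G66340), ERS1 (AT2G40940), ETR2 (AT3G23150) and ERS2 (AT1G04310). The kinase was CTR1 (AT5G03730), and the membrane protein below it was EIN2 (AT5G03280). The transcription factors were EIN3 (AT3G20770) and EIL1 (AT2G27050), and the F-box proteins were EBF1 (AT2G25490) and EBF2 (AT5G25350). The genes were chosen for their place in the pathway, with earlier results of these data known.

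Ethylene binds receptors in the endoplasmic reticulum membrane, and without the hormone these receptors keep the kinase CTR1 active, which blocks EIN2. When ethylene is present, EIN2 is cleaved and its C-terminal fragment acts on EIN3 and EIL1, which turn on ethylene-induced genes. EBF1 and EBF2 mark EIN3 and EIL1 for breakdown, so a plant with more of their mRNA responds less to ethylene. EIN5, also called XRN4, is the cytoplasmic exonuclease that degrades decapped mRNA from its 5′ end, and ein5 mutants were first known for their weak response to ethylene, a trait linked to EBF1 and EBF2 mRNA.

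RNA came from the aerial tissue of 18-day-old plants, which grew at 22 °C under days of 16 h light. There were 6 genotypes with 1 library each: the triple mutant rdr6-11 ein5-1 ski2-3, the double mutant ein5-1 ski2-3, the single mutants ein5-1, ski2-3 and rdr6-11, and the wild type Col-0. SKI2 is the helicase that feeds mRNA to the cytoplasmic exosome, which degrades it from the 3′ end, and RDR6 copies RNA into the double-stranded precursors of small interfering RNAs. The labels name no ethylene treatment, do not describe the molecular lesion of any allele, and do not say how many plants went into a library. Without replicates, every difference compares 2 libraries and has no replicate check.

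The libraries held 20205663 to 33100379 reads, of which 10942840 to 16593256 fell on nuclear genes. Levels are given as scaled RPM, which are reads per 1000000 after each library's nuclear total was adjusted by a trimmed mean of log ratios. Each log2 ratio has an exact 95% interval of its 2 counts, which covers counting error only. With the scaling used here, transcripts of the mutated genes were lower than in Col-0 in each library carrying the allele, though still detected. For EIN5 the log2 ratio was -1.26 in the triple mutant, -0.54 in the double mutant and -1.05 in ein5-1. For SKI2 it was -0.78 in the triple mutant, -0.37 in the double mutant (0.05 with total nuclear counts) and -0.65 in ski2-3, and for RDR6 it was -1.53 in the triple mutant and -1.77 in rdr6-11. The triple mutant and rdr6-11 stood apart in 2 ways. Of the genes with 1 to 20 reads, 81.4% in the triple mutant and 81.9% in rdr6-11 had an even count, against 38.5% to 41.6% elsewhere. The counting intervals of the triple mutant and rdr6-11 may thus be too narrow. Wider ones from halved counts are given for some ratios between libraries. Clock gene levels were also of another kind there: the morning gene CCA1 had 900 reads in the triple mutant and 639 in rdr6-11, against 0 to 19 reads in the other 4 libraries. Whether clock phase plays a part in any ratio to Col-0 or to the double mutant was not tested. The leaf markers RBCS1A, RCA, LHCB1.3 and CAB4 were abundant in all 6 libraries, at no fewer than 10879 reads. Their median log2 ratio to Col-0 was 0.97 in the triple mutant, -0.79 in the double mutant, 0.31 in ein5-1, 0.30 in ski2-3 and 1.03 in rdr6-11, and its part in the ratios below was not tested. No root marker exceeded 52 reads and no floral organ marker exceeded 16 reads.

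**Figure D1:**
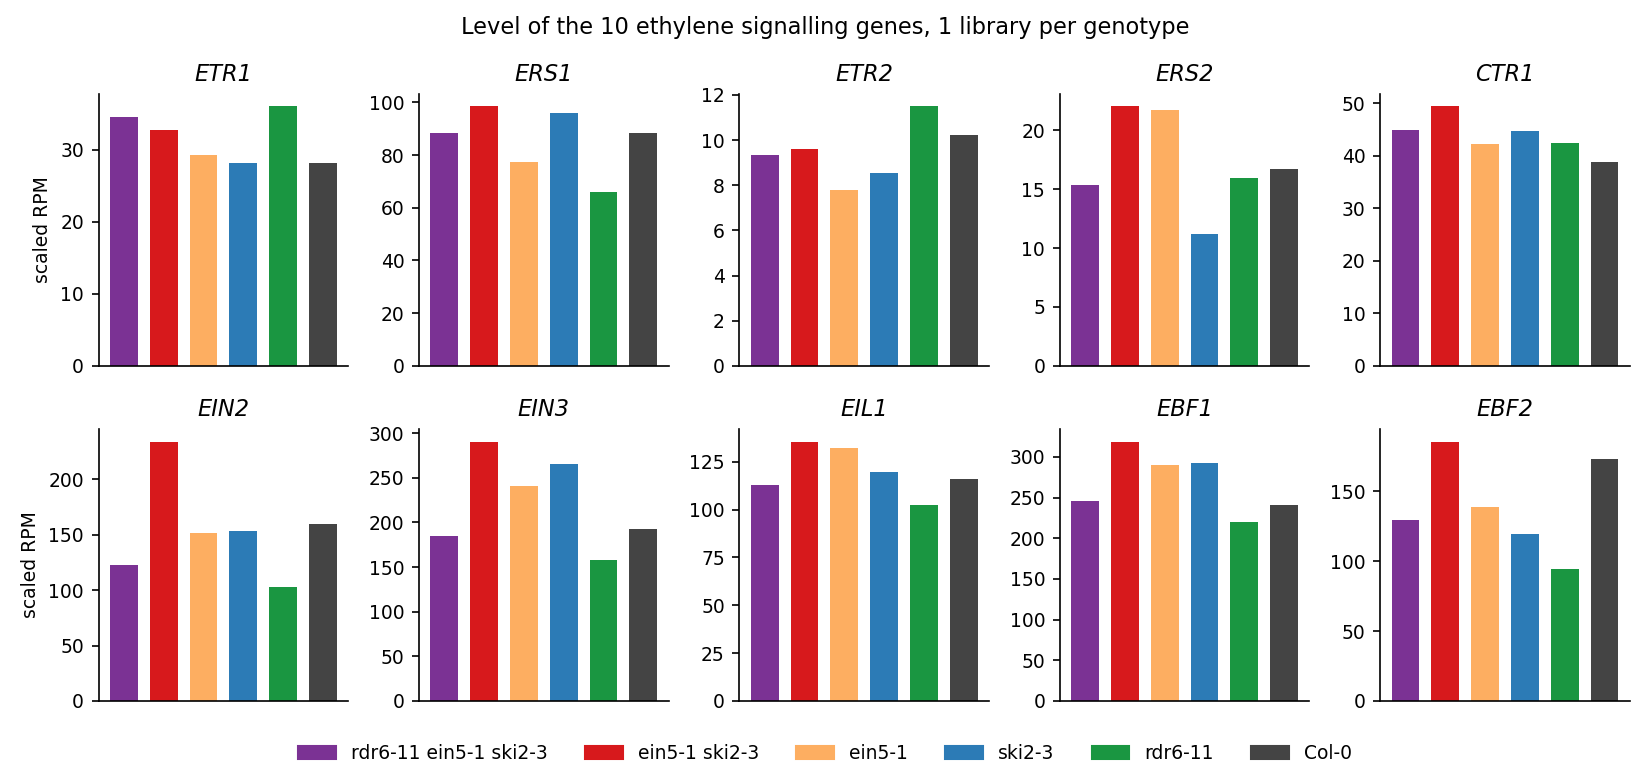
Scaled RPM (vertical axis, from 0) of each of the 10 genes, with 1 bar per library and no error bar because each genotype has 1 library. EIN2 shows the widest spread, with 234 in the double mutant against 103 in rdr6-11, and EBF2 is lowest in rdr6-11 at 94.2.

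The 10 transcripts were all detected in this aerial tissue, and the end of the pathway was more abundant than its start. In bulk tissue, fewer cells of a type and less RNA per cell cannot be told apart. Per length, as the RPKM values that the authors deposited, EBF1 had the highest mean at 39.0 ± 8.45 and EIN3 followed at 35.0 ± 10.3 RPKM (SD over 6 genotypes, n = 6 libraries). EBF2 stood at 23.4 ± 7.37, EIL1 at 21.7 ± 4.13, ERS1 at 13.3 ± 2.59 and EIN2 at 12.0 ± 4.59 RPKM. The 4 lowest means were 4.01 ± 0.662 RPKM for ETR1, 3.75 ± 0.631 for CTR1, 2.71 ± 0.885 for ERS2 and 1.41 ± 0.209 for ETR2. Ranges over the 6 genotypes overlapped between EBF1 (29.9 to 53.1) and EIN3 (23.2 to 52.3), between EBF2 (14.6 to 35.3) and EIL1 (17.3 to 28.1), and between ERS1 (9.61 to 17.6) and EIN2 (7.46 to 20.8). Within each library EBF1 was above EIN3, though narrowly in ski2-3 (37.0 against 36.2) and the double mutant (53.1 against 52.3). EBF2 and EIL1 changed order between libraries, as did ERS1 and EIN2. The ranges did not overlap between EIN2 and ETR1, whose highest RPKM was 4.79. Across the 6 libraries the highest scaled level was between 1.27 times (CTR1) and 2.27 times (EIN2) the lowest. The median of this spread was 1.48 for the 10 genes, against 1.86 for all 15749 genes with at least 100 reads in some library.

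None of the 10 genes differed 2-fold in any of 9 comparisons with the scaling used here. A gene counted as measured if it had 100 reads or more in the richer library of the pair, which left out ETR2 in ein5-1 against Col-0 (94 and 96 reads) and in ski2-3 against Col-0 (90 and 96 reads). In ein5-1 against Col-0, 0 of 9 measured members passed 2-fold, where 3.50% of all measured genes did, and 0 passed 1.5-fold, where 12.9% did. In ski2-3 against Col-0 the counts were 0 of 9 at 2-fold (3.60% of all genes) and 0 at 1.5-fold (15.3%). Over all 10 members, the double mutant against Col-0 gave 0 at 2-fold (15.6% of all genes) and 1 at 1.5-fold, EIN3 (36.3%). Against ski2-3, the double mutant gave 0 (13.4%) and 3, which were ERS2, EIN2 and EBF2 (32.7%). Against ein5-1, it gave 0 (12.4%) and 1, EIN2 (29.6%).

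The comparisons with rdr6-11 gave a like result. In rdr6-11 against Col-0, 0 of 10 members passed 2-fold (10.4% of all genes) and 2 passed 1.5-fold, EIN2 and EBF2, both lower (24.9%). For the triple mutant, 0 passed 2-fold and 0 passed 1.5-fold against Col-0 (10.7% and 24.3% of all genes), and 0 and 0 against rdr6-11 (1.45% and 7.33%). Against the double mutant, the triple mutant gave 0 at 2-fold (23.1%) and 2 at 1.5-fold, EIN2 and EIN3, both lower (45.0%). In 8 of the 9 comparisons the median size of the members' log2 ratios was below that of all measured genes, at 0.17 against 0.38 in the double mutant over ski2-3 and 0.12 against 0.29 in the triple mutant over Col-0. The exception was the triple mutant over rdr6-11, at 0.19 for the members and 0.18 for all genes. Nothing particular to the members is read from these counts.

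**Figure D2:**
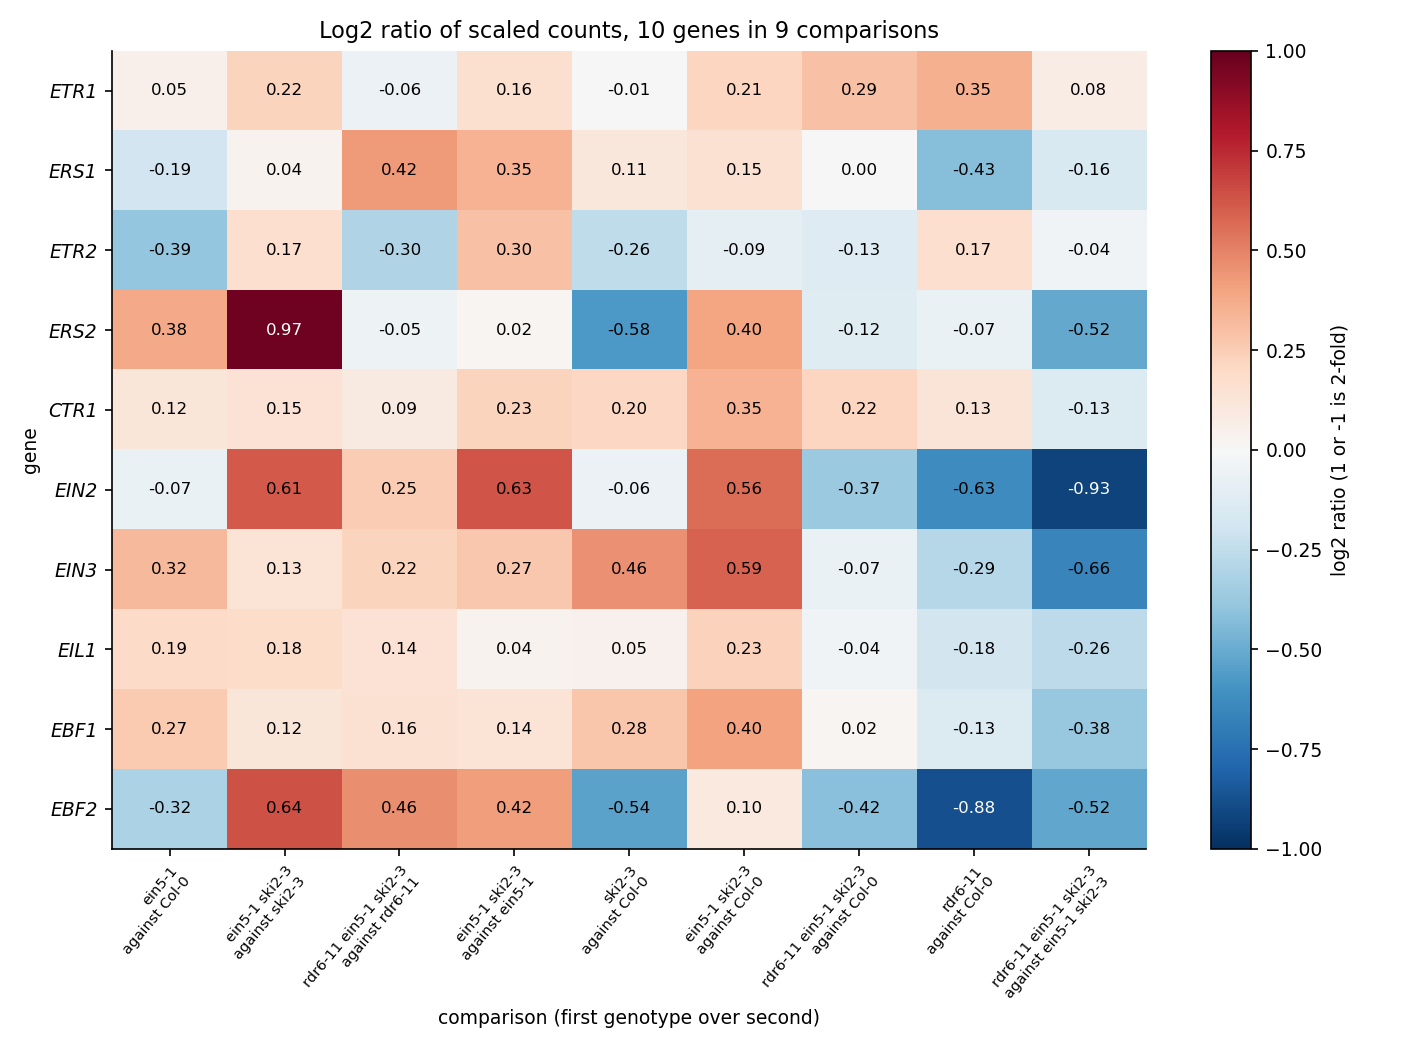
Log2 ratio of scaled counts (colour and printed value) for the 10 genes (rows) in 9 comparisons (columns, first genotype over second). No cell reaches 1 or -1, which would be 2-fold, and EBF2 and EIN2 hold the strongest blue cells, at -0.88 for EBF2 in rdr6-11 over Col-0 and -0.93 for EIN2 in the triple over the double mutant.

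EBF1 and EBF2, the transcripts through which EIN5 is known to affect ethylene signalling, went in opposite directions in ein5-1. EBF1 stood at 290.3 scaled RPM in ein5-1 against 242 in Col-0, from 3500 and 2270 reads, a log2 ratio of 0.27 (interval 0.19 to 0.34). EBF2 stood at 139 in ein5-1 against 173 in Col-0, from 1673 and 1628 reads, a log2 ratio of -0.32 (-0.42 to -0.22). Both intervals leave out 0 and both ratios are well short of 2-fold. Their signs were the same under all 7 alternative ways of scaling and counting, but their sizes were not, with EBF1 reaching 0.54 and EBF2 -0.05 when libraries were scaled to total nuclear counts.

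Over all 6 libraries, EBF1 had 245 scaled RPM in the triple mutant, 319 in the double mutant, 290.3 in ein5-1, 293 in ski2-3, 220.2 in rdr6-11 and 242 in Col-0. The double mutant and both of its single mutants were thus above Col-0, while the triple mutant was level with it and rdr6-11 was below. EBF2 had 129.7 in the triple mutant, 186 in the double mutant, 139 in ein5-1, 119 in ski2-3, 94.2 in rdr6-11 and 173 in Col-0. Only the double mutant was above Col-0 for EBF2, by a log2 ratio of 0.10 (0.02 to 0.19), and the other 4 mutants were below it.

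EBF2 had its lowest level in rdr6-11, a mutant with functional EIN5 and SKI2. Its log2 ratio to Col-0 there was -0.88 (-0.99 to -0.77, and -1.02 to -0.75 from halved counts), which is a fold of 0.544. EBF1 in the same library stood at -0.13 (-0.21 to -0.05), and this sign turned to 0.08 with total nuclear counts. For the triple mutant over Col-0, EBF2 was at -0.42 (-0.51 to -0.32) and EBF1 at 0.02 (-0.05 to 0.10).

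Among the comparisons are 3 pairs of libraries that differ in the ein5-1 allele and share no library: ein5-1 over Col-0, the double mutant over ski2-3, and the triple mutant over rdr6-11, which also differs in ski2-3. EBF1 was higher with ein5-1 in all 3 pairs, at log2 ratios of 0.27 over Col-0, 0.12 (0.06 to 0.19) over ski2-3 and 0.16 (0.09 to 0.23) over rdr6-11. EBF2 was higher in 2 of the 3 pairs, at 0.64 (0.54 to 0.73) over ski2-3 and 0.46 (0.36 to 0.56) over rdr6-11, and lower over Col-0. Of the 9 members measured in all 3 pairs, 4 were higher with ein5-1 each time, namely CTR1, EIN3, EIL1 and EBF1, against 21.7% of 12569 genes. None was lower each time, against 15.6%. All of these 12 ratios were small, with the highest at 0.32, and those of CTR1 had intervals that included 0 in each pair.

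**Figure D3:**
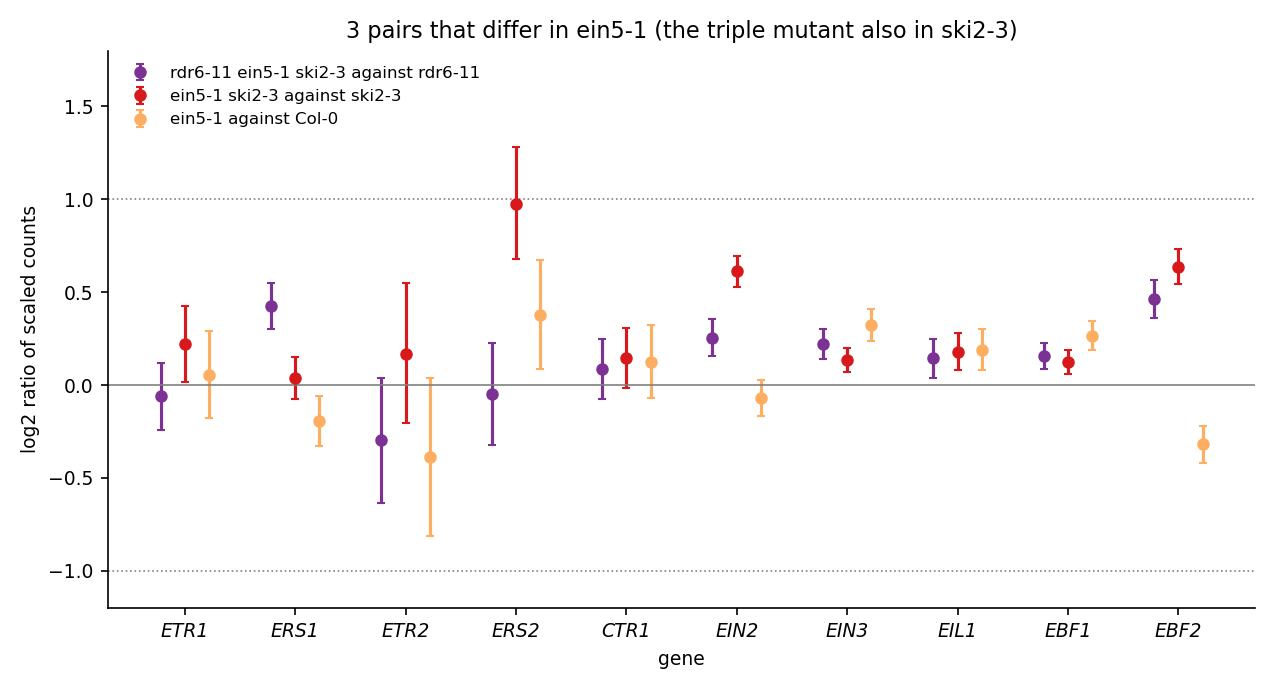
Log2 ratio of scaled counts (vertical axis) for each gene in 3 pairs that share no library; bars are exact 95% counting intervals, dotted lines mark 2-fold, and the triple mutant also differs from rdr6-11 in ski2-3. EBF1 lies above 0 in all 3 pairs, between 0.12 and 0.27, while EBF2 spans -0.32 to 0.64.

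The ratio that went with ein5-1 for EBF2 differed by background. It was 0.64 in the ski2-3 background against -0.32 in Col-0, a difference of 0.96 (0.82 to 1.09, counting error only). Put the other way, the ratio that went with ski2-3 was 0.42 (0.34 to 0.51) in the ein5-1 background against -0.54 (-0.64 to -0.43) in Col-0. Both single mutants were therefore below Col-0 for EBF2 and the double mutant was above each of them. EBF1 showed no such turn: its ein5-1 ratio was 0.12 in ski2-3 against 0.27 in Col-0, a difference of -0.14 (-0.24 to -0.04). No member departed from additivity in this way by 2-fold or more, where 16.5% of 15193 genes did. EBF2 came nearest, followed by EIN2 at 0.68 (0.55 to 0.81), ERS2 at 0.59 (0.18 to 1.00) and ETR2 at 0.55 (0.00 to 1.10). With 1 library per genotype these differences could not be tested.

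Ratios between genes within a library need no scaling. EBF2 reads per EBF1 read were 0.529 (0.501 to 0.558) in the triple mutant, 0.582 (0.558 to 0.607) in the double mutant, 0.478 (0.451 to 0.507) in ein5-1, 0.408 (0.382 to 0.436) in ski2-3, 0.428 (0.400 to 0.458) in rdr6-11 and 0.717 (0.673 to 0.765) in Col-0. Col-0 had the highest ratio of the 6, and its interval met none of the others. In log2, the change was -0.59 (-0.71 to -0.46) for ein5-1 over Col-0, and -0.81 and -0.74 for ski2-3 and rdr6-11 over Col-0. These 3 share the Col-0 library. In the pairs without Col-0 the ein5-1 side had the higher ratio, by 0.51 (0.40 to 0.62) in the double mutant over ski2-3 and 0.31 (0.18 to 0.43) in the triple mutant over rdr6-11. Of the 3 pairs, the one with Col-0 was thus the one that went the other way.

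The F-box transcripts were also set against the transcripts of their target proteins. Reads of EBF1 and EBF2 together, per read of EIN3 and EIL1 together, were 1.26 in the triple mutant, 1.18 in the double mutant, 1.15 in ein5-1, 1.07 in ski2-3, 1.21 in rdr6-11 and 1.34 in Col-0. Every mutant had a lower ratio than Col-0, with a log2 change of -0.22 (-0.31 to -0.13) in ein5-1 and -0.33 (-0.42 to -0.23) in ski2-3. All of these changes share the Col-0 library. The change in the triple mutant was -0.09 and its interval reached -0.00. With ein5-1 in the ski2-3 background, the ratio was higher instead, by 0.14 (0.07 to 0.22). No interval from halved counts is given for ratios within a library, so those of the triple mutant and rdr6-11 may be too narrow.

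**Figure D4:**
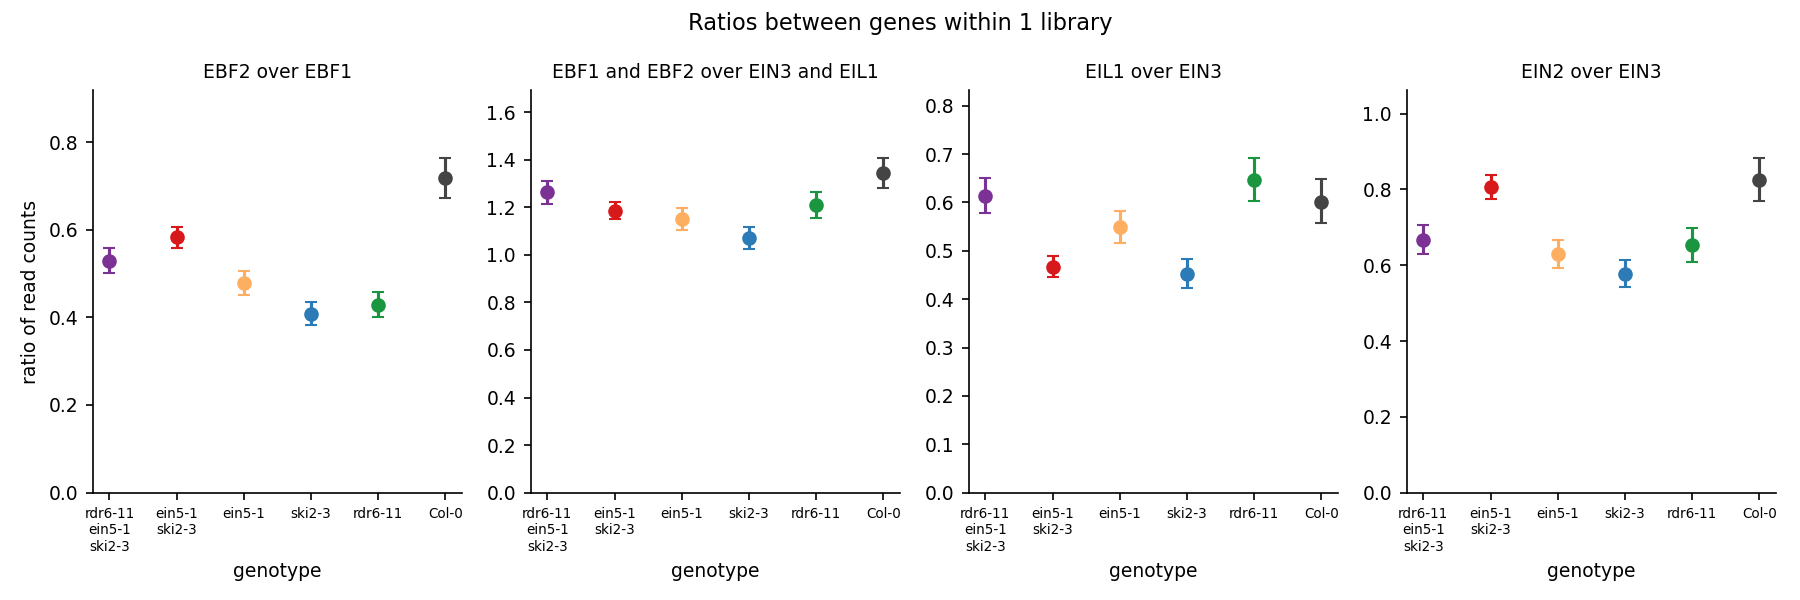
Ratios of read counts between genes of the same library (vertical axes, from 0) by genotype, with exact 95% counting intervals as bars. Col-0 has the highest value of EBF2 over EBF1, at 0.717, and of EBF1 and EBF2 over EIN3 and EIL1, at 1.34.

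EIN3, the main transcription factor of the response, was higher than Col-0 in the ein5-1, ski2-3 and double mutant libraries. It had 184 scaled RPM in the triple mutant, 290.5 in the double mutant, 241 in ein5-1, 265 in ski2-3, 158 in rdr6-11 and 193 in Col-0. The log2 ratios to Col-0 were 0.59 (0.51 to 0.67) in the double mutant, 0.46 (0.37 to 0.54) in ski2-3 and 0.32 (0.24 to 0.41) in ein5-1. In the triple mutant and rdr6-11, EIN3 was not above Col-0. The ratio was -0.07 (-0.15 to 0.02) in the triple mutant, with a sign that turned in 3 of the 7 alternatives, and -0.29 (-0.38 to -0.20) in rdr6-11. These libraries also stood apart in even counts and clock genes, which cannot be told apart from the rdr6-11 allele. The triple mutant stood below the double mutant by a log2 ratio of -0.66 (-0.72 to -0.59).

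EIL1, its close paralog, varied less. Its scaled RPM were 113 in the triple mutant, 136 in the double mutant, 132 in ein5-1, 120 in ski2-3, 102 in rdr6-11 and 116 in Col-0. The ratio with ein5-1 was above 0 in the 3 pairs, at 0.19 (0.08 to 0.30) over Col-0, 0.18 (0.08 to 0.28) over ski2-3 and 0.14 (0.04 to 0.25, or -0.00 to 0.29 from halved counts) over rdr6-11. With total nuclear counts the 3 EIL1 ratios were 0.46, 0.43 and 0.19 in the same order, and with organelle genes included they were 0.38, 0.59 and 0.30. EIL1 reads per EIN3 read were 0.467 in the double mutant and 0.452 in ski2-3, against 0.600 in Col-0. The log2 change was -0.36 (-0.49 to -0.24) in the double mutant and -0.41 (-0.55 to -0.26) in ski2-3, so EIN3 and EIL1 transcripts were not in a fixed proportion. In ein5-1 the change was -0.13 (-0.27 to 0.01).

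EIN2, the membrane protein that passes the signal to the nucleus, had the widest spread of the 10. Its scaled RPM were 123 in the triple mutant, 234 in the double mutant, 152 in ein5-1, 153 in ski2-3, 103 in rdr6-11 and 159 in Col-0. Neither single decay mutant differed from Col-0 beyond counting error, at -0.07 (-0.17 to 0.03) in ein5-1 and -0.06 (-0.16 to 0.05) in ski2-3, and both signs turned under other scalings. The double mutant was nevertheless higher, by 0.56 (0.47 to 0.64) over Col-0, 0.61 (0.53 to 0.70) over ski2-3 and 0.63 (0.55 to 0.71) over ein5-1. The triple mutant was lower than the double mutant by -0.93 (-1.01 to -0.85), and it passed 2-fold in 4 of the scalings tried. rdr6-11 was also lower than Col-0 without any decay mutation, at -0.63 (-0.73 to -0.52).

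The receptors differed in how steady they were. ETR1, a receptor with a complete histidine kinase domain, had 34.5 scaled RPM in the triple mutant, 32.7 in the double mutant, 29.3 in ein5-1, 28.1 in ski2-3, 36.0 in rdr6-11 and 28.2 in Col-0. ERS1, the other receptor of that subfamily, had 88.4 in the triple mutant, 98.4 in the double mutant, 77.4 in ein5-1, 95.9 in ski2-3, 65.9 in rdr6-11 and 88.5 in Col-0. Its lowest level was in rdr6-11, at a log2 ratio to Col-0 of -0.43 (-0.57 to -0.29), and the triple mutant was above rdr6-11 by 0.42 (0.30 to 0.55). ERS1 reads per ETR1 read were 1.83 (1.63 to 2.05) in rdr6-11, against 3.14 (2.73 to 3.62) in Col-0.

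ERS2 and ETR2 belong to the subfamily whose kinase domain lacks some of the histidine kinase motifs, and both had few reads. ERS2 had 15.4 scaled RPM in the triple mutant, 22.0 in the double mutant, 21.7 in ein5-1, 11.2 in ski2-3, 15.9 in rdr6-11 and 16.7 in Col-0. The double mutant and ein5-1 were the highest and ski2-3 was the lowest, from 118 reads. The double mutant over ski2-3 gave 0.97 (0.68 to 1.28), which was the highest ratio of any member and passed 2-fold in 4 of the scalings tried. Over Col-0, ERS2 was at 0.38 (0.09 to 0.67) in ein5-1 and -0.58 (-0.93 to -0.22) in ski2-3, and in the triple mutant over rdr6-11 it was at -0.05 (-0.32 to 0.22). ERS2 reads per ERS1 read were 0.281 (0.244 to 0.322) in ein5-1 and 0.117 (0.096 to 0.141) in ski2-3, against 0.189 (0.158 to 0.224) in Col-0. ETR2 had 90 to 182 reads per library and 7.80 to 11.5 scaled RPM, and none of its 9 intervals left out 0.

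ERS1 was the most abundant receptor transcript in each of the 6 libraries. When the RPKM of ETR1, ERS1, ETR2, ERS2 and EIN4, the remaining receptor of the family, were summed, ERS1 held 47.2% to 62.9% of the sum over the 6 libraries with a median of 56.1%. ETR1 held 14.9% to 21.1%, ERS2 7.33% to 14.9%, EIN4 9.14% to 12.4% and ETR2 5.13% to 7.88%. CTR1, the kinase that the receptors hold active, and ETR1 varied least on the scaled RPM scale, with a highest level 1.27 times (CTR1) and 1.28 times (ETR1) the lowest. As RPKM this spread was 1.48 times for ETR2, 1.54 for ETR1 and 1.56 for CTR1. CTR1 stood at 45.0 scaled RPM in the triple mutant, 49.4 in the double mutant, 42.2 in ein5-1, 44.6 in ski2-3, 42.4 in rdr6-11 and 38.7 in Col-0. All 5 mutants lay above Col-0, but these 5 ratios share the 1 Col-0 library. The log2 ratio was 0.22 (0.03 to 0.40, or -0.002 to 0.43 from halved counts) in the triple mutant, 0.35 (0.17 to 0.53) in the double mutant and 0.20 (0.004 to 0.41) in ski2-3, while the intervals of ein5-1 and rdr6-11 included 0.

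No member separated the 3 libraries with ein5-1 from the 3 with EIN5. None had all 3 ein5-1 libraries above the others, which 5.0% of 15749 genes did, and none had all 3 below, which 2.41% did. This count was the most dependent on scaling, since CTR1 and EIL1 were higher without overlap with total nuclear counts, as were 13.2% of all genes, and ERS2, CTR1, EIL1 and EBF1 with total counts that include organelle genes, as were 20.1%.

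The rest of the pathway was read from lists of known genes. Of the receptor partners RTE1, RTH, RAN1 and the receptor EIN4, none was called at 2-fold with the scaling used here, but RTH, with 34 to 97 reads, was measured in none of the 9 comparisons and RTE1 was measured in 4. RAN1, the copper transporter that loads the receptors' cofactor, came closest: its level was 152 scaled RPM in the double mutant, against 79.4 in Col-0, a log2 ratio of 0.94 (0.82 to 1.06), and the triple mutant was lower than the double mutant by -0.95 (-1.04 to -0.85). Both RAN1 ratios passed 2-fold with 4 other scalings, at 1.09 to 1.35 for the double mutant over Col-0. The double mutant over ski2-3, at 0.97 here, was at 1.22 to 1.38 with them. EIN4 stayed between 15.5 and 21.4 scaled RPM. Of 14 other signalling and turnover factors 13 were measured, and 0 reached 2-fold in ein5-1, ski2-3 or the double mutant over Col-0. The shares of all measured genes that did were 3.50%, 3.60% and 15.6% in that order. With total nuclear counts ENAP1 was at 1.01 in the double mutant over Col-0, against 0.60 here. The list median in ein5-1 over Col-0 was 0.10, against 0.04 for all genes. MPK3, a kinase that stabilises the ACS6 enzyme, was lower than Col-0 in ein5-1 at -0.91 (-1.04 to -0.78), and higher in rdr6-11 at 1.48 (1.39 to 1.57) and in the triple mutant at 1.08 (0.98 to 1.17).

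Genes known to be induced by ethylene were lower in ein5-1 than in Col-0. In this comparison 3.50% of all measured genes differed 2-fold in either direction. Of the 19 on the list 14 were measured, 6 were at least 2-fold lower and 0 at least 2-fold higher. The list's median log2 ratio was -0.71, against 0.04 over all genes. The 6 were the ethylene response factors ERF11 at -2.80 (-3.33 to -2.33), ERF4 at -1.90 and ERF5 at -1.69, the defensin PDF1.2 at -1.70, the antifungal protein gene HEL at -1.14 and the chitinase gene HCHIB at -1.02. ERF11 had 3.40 scaled RPM in ein5-1 and 23.9 in Col-0, from 41 and 225 reads. With total nuclear counts, total counts that include organelle genes or RPKM, the number at least 2-fold lower was 4 each time. The list median was then -0.43, -0.52 and -0.54, against 0.32, 0.23 and 0.21 over all genes. The share of 3.50% belongs to the scaling used here. FLS2, the flagellin receptor, stood above Col-0, at 0.66. Several of these genes answer to more than ethylene: ERF4, ERF5 and ERF11 are also induced by wounding and touch, and PDF1.2, HEL and HCHIB by jasmonate or pathogens. ACS6, an ethylene synthesis enzyme gene that is itself induced by touch and wounding, was also lower in ein5-1, at -1.60 (-1.80 to -1.41), and was the 1 gene of 6 measured on the synthesis list to pass 2-fold.

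The other 2 ein5-1 pairs did not show the list lower to a like extent. In the double mutant over ski2-3, 2 of 16 measured genes passed 2-fold upward and 2 downward, where 13.4% of all measured genes passed in either direction. The list median was -0.04, against 0.04 over all genes. With total nuclear counts it was 0.21, against 0.29 over all genes. With organelle genes included it was 0.37, against 0.45 over all genes. HLS1, the apical hook gene, was at 1.84 (1.33 to 2.42) and EDF3 at 1.14, while PDF1.2 was at -6.67 (-6.88 to -6.47) and HEL at -2.003. In the triple mutant over rdr6-11, 2 of 17 were higher and 0 lower, where 1.45% of all measured genes passed in either direction. The list median was 0.14 against 0.04 over all genes, and the 2 were PDF1.2 at 6.81 (6.08 to 7.77) and HEL at 1.34. PDF1.2 had 1832 reads in the triple mutant, 199 in the double mutant, 617 in ein5-1, 11258 in ski2-3, 13 in rdr6-11 and 1567 in Col-0, so its direction depended on the pair. In the double mutant over ein5-1, 4 of 16 measured genes were at least 2-fold higher and 1 was lower, where 12.4% of all measured genes passed in either direction. The list median was 0.60, against 0.04 over all genes. The 4 were ERF11 at 2.54 (2.09 to 3.06), ERF4 at 1.53, ERF5 at 1.62 and HCHIB, at 30.7 against 8.88 scaled RPM. PDF1.2 was the lower one, at -2.28.

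The double mutant over Col-0 gave a list median near that of all genes, at 0.06 against 0.08. Of 16 measured genes 1 was at least 2-fold higher (HLS1 at 1.18) and 1 lower (PDF1.2 at -3.99), where 15.6% of all measured genes passed in either direction. In ski2-3 over Col-0, 3 of 14 were higher and 0 lower (3.60% of all genes passed in either direction). The 3 were PDF1.2 at 2.68, HCHIB at 1.72 and HEL at 1.47, and the median was 0.09 against 0.06. In rdr6-11 over Col-0, where 10.4% of all genes passed in either direction, 3 of 16 were higher, ARGOS at 2.35, FLS2 at 1.60 and EDF2 at 1.32. Another 3 were lower, PDF1.2 at -7.33, HEL at -2.28 and HCHIB at -1.51. The median there was 0.35 against -0.04 over all genes, and the clock gene CCA1 differed in the same comparison, whose part in it was not tested.

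Ethylene synthesis genes were mostly too low to measure, with 6 to 9 of 17 measured in a comparison. ACS6 was lower in ski2-3 than in Col-0 as well, at -1.18 (-1.37 to -0.997). In the triple mutant over Col-0, ACS11 was at 1.77 (1.31 to 2.27) and ACO1 at 2.42 (1.75 to 3.21). ACS11 was also higher in rdr6-11 over Col-0, at 1.72. ACO1 had 174 reads in the triple mutant, 79 in rdr6-11 and 19 in Col-0. The double mutant over ski2-3 had the gene AT1G12010 at 1.28 (0.73 to 1.88).

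**Figure D5:**
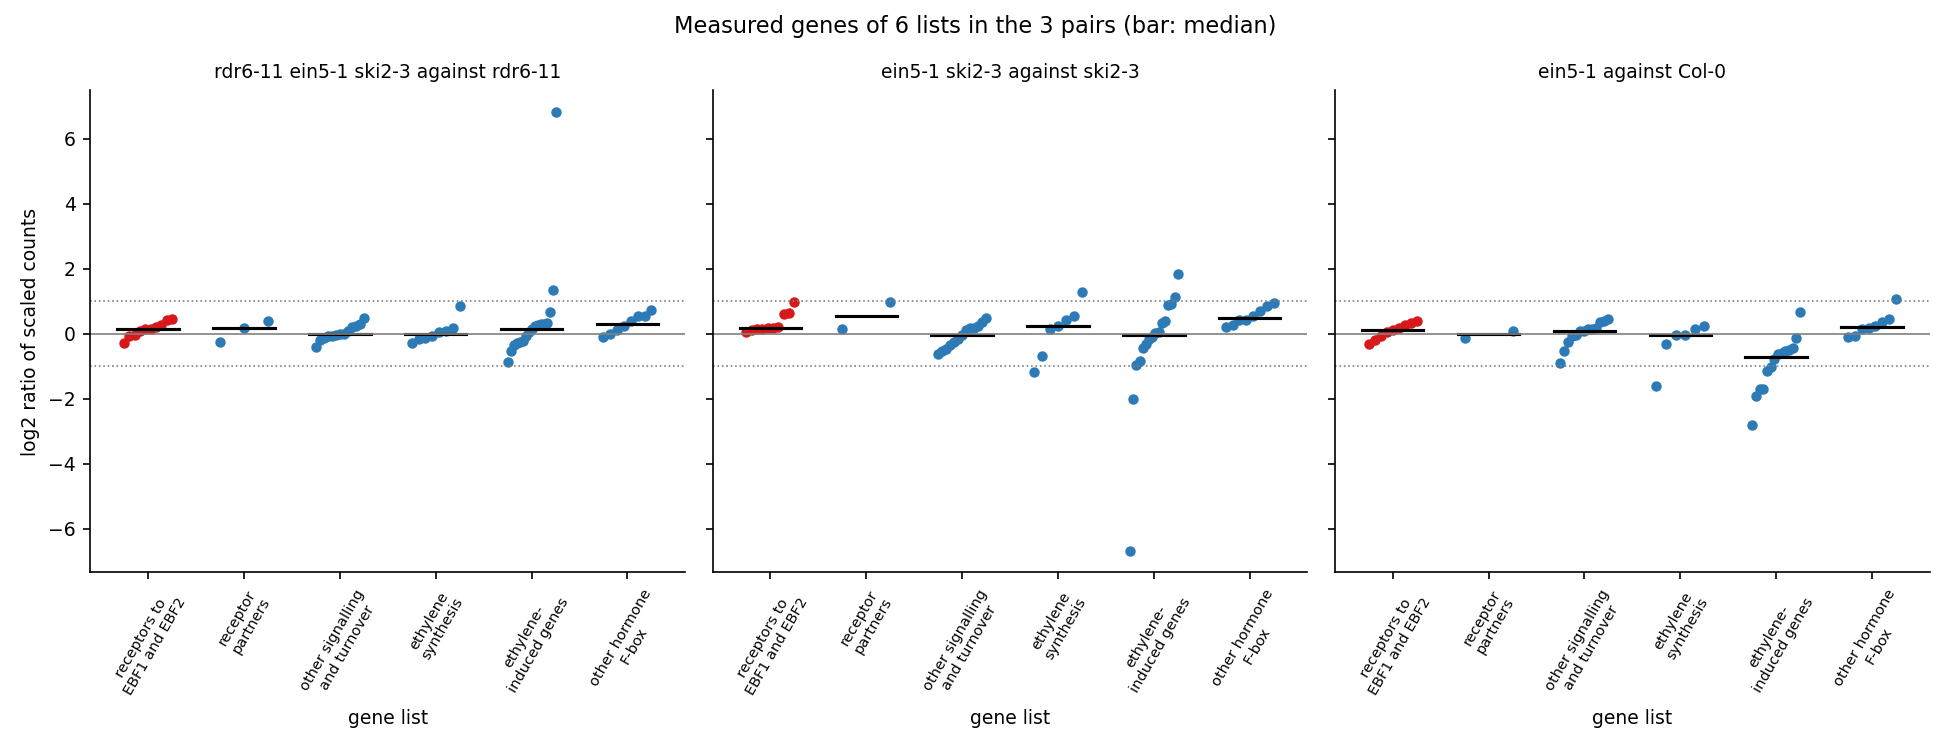
Log2 ratio of scaled counts (vertical axis) for the measured genes of 6 lists in the 3 pairs that share no library, with 1 point per gene, a black bar at each list's median and dotted lines at 2-fold; the receptors, CTR1, EIN2, EIN3, EIL1, EBF1 and EBF2 are in red. In ein5-1 over Col-0 the ethylene-induced genes lie lowest, with a median of -0.71, while the red points stay between -0.32 and 0.38.

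EBF1 and EBF2 are 2 of many F-box proteins, so the F-box genes of other hormone pathways were set beside them. Of 8 measured, MAX2, of strigolactone signalling, was the 1 at least 2-fold higher in ein5-1 than in Col-0, at 1.07 (0.90 to 1.24). In that comparison 3.50% of all measured genes differed 2-fold in either direction. The list median was 0.20 against 0.04 over all genes. MAX2 had 69.0 scaled RPM in the triple mutant, 103 in the double mutant and 85.4 in ein5-1. It had 52.9 in ski2-3, 47.0 in rdr6-11 and 40.7 in Col-0, so all 3 ein5-1 libraries lay above the 3 others. With the scaling used here, 5.0% of 15749 genes did the same. MAX2 was named because it passed 2-fold in ein5-1 over Col-0, so nothing particular to it is read from this order. In the double mutant over Col-0, MAX2 at 1.33 and SLY1, of gibberellin signalling, at 1.15 were at least 2-fold higher, and the list median was 0.56 against 0.08. There 15.6% of all measured genes differed 2-fold in either direction. The count of 2 became 4 with total nuclear counts, where AFB2 and COI1, of auxin and jasmonate signalling, also passed. It became 3 with organelle genes included or with RPKM, where AFB2 passed. The median of all genes was then 0.49, 0.38 and 0.37 in that order, against 0.08 here. The share of 15.6% belongs to the scaling used here, so nothing particular to these F-box genes is read from the added calls.

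The nuclear genes whose levels over the 6 libraries ran closest to EBF1 were CHR4 (AT5G44800), at a root mean square difference of 0.022 in centred log2 level, AT5G48385 at 0.028 and AT5G19130 at 0.033, among 13595 genes. The closest member was EIL1 at 0.079. The genes closest to EBF2 were ARFA1E (AT3G62290) at 0.055, FBW2 (AT4G08980) at 0.068 and AT5G60548 at 0.089, and the closest member was EIN2 at 0.182. EBF1 and EBF2 themselves were 0.276 apart.

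Some reads may be shared with neighbouring genes, since the use of strand was not stated. In the TAIR10.1 annotation ETR1 overlaps AT1G66345 on the same strand, which had 54 to 158 reads per library. ERS1 overlaps AT2G40935 on the opposite strand (11 to 36 reads), and EBF2 overlaps AT5G25340 (18 to 84 reads) and the antisense RNA gene AT5G03965 on the opposite strand, which was not analysed here. Counts are over whole genes, so full-length mRNA and decay fragments of EBF1 or EBF2 cannot be told apart in them.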

How the data were processed

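Ribosomal RNA was removed from 10 µg of total RNA before random-primed cDNA synthesis, per the labels' protocols. Per the submitters' processing notes, BWA was the aligner named and TAIR9 the genome build. Neither these notes nor the protocols name the counting tool or say if strand was used. The deposited table held, per the file headers, read counts and RPKM values of 6 libraries in 6 columns each, and 27 further columns of the authors' comparisons that were not used. Between 4407 and 7206 count cells per library had no value and were taken as 0 reads.

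The deposited counts of nuclear genes received library sizes by the trimmed mean of M-values (log ratios), written in numpy 2.4.6 (trims of 0.3 and 0.05), with a pseudocount of 0.5. Once sizes were set, ribosomal and transfer RNA genes were dropped and 32696 genes stayed. Intervals are exact (Clopper-Pearson, scipy 1.17.1), except those on changes of a within-library ratio and on differences between ratios, which use a log-normal approximation. Since PCR copies carry no molecular identifier, intervals cover counting error only. A ratio was called at 2-fold with at least 100 reads in the higher library, which is a size threshold with no test behind it, and no p-value is given. The script was tested on simulated data. Gene names came from the deposited table and the TAIR10.1 gene table, which 32835 identifiers matched. Gene types and overlaps between genes were also taken from the TAIR10.1 annotation.

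The 10 genes, the lists and the rules were chosen with earlier results of these data known. Genes named are the 10 members, the 3 mutated genes, list genes at least 2-fold different or else at the ends of their list, and the 3 genes nearest in pattern to EBF1 and to EBF2. A synthesis gene that the rule names is not reported here. Alternatives were other scalings, the deposited RPKM, a pseudocount of 5, read minimums of 0 and 500, halved counts, 1.5-fold, and leaving out each pair of libraries. Applying the scalings to the lists, and giving shares of all genes under them, was chosen after seeing the data.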

Additional observations from a re-analysis of the deposited data

Results flagged for a closer look

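EBF2 was singled out because its ratio went opposite ways in 2 backgrounds. The log2 ratio that went with ein5-1 was 0.64 in the ski2-3 background and -0.32 in Col-0, a difference of 0.96. The ratio that went with ski2-3 was 0.42 in the ein5-1 background and -0.54 in Col-0, which is the same difference of 0.96 because it uses the same 4 libraries. The opposite directions were found under all 7 alternatives of scaling, pseudocount and counting. With 1 library per genotype the difference was not tested. The Col-0 library enters both reference ratios, and it had the highest EBF2 to EBF1 read ratio of the 6, at 0.717.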

How the results depend on the processing

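No paired analysis by replicate was possible because each genotype has 1 library. The 3 ein5-1 pairs are different genotypes, of which 1 also differs in ski2-3, and they were described without a test. Of 90 member ratios, 0 moved beyond their counting interval with median-of-ratios size factors, a pseudocount of 5 or halved counts, against 60 with total nuclear counts, 35 with those without ribosomal RNA genes, 53 with organelle genes included and 54 with the deposited RPKM. These scalings moved the median log2 ratio of all genes by -0.18 to 0.41, and the members with it. Sign changes numbered 3 to 14 per scaling, for ratios no larger than 0.19. In ein5-1 over Col-0, EBF1 was at 0.54, 0.45 and 0.43 and EBF2 at -0.048, -0.13 and -0.15 with total nuclear counts, organelle genes included and RPKM.

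Members at 2-fold numbered 1 (EIN3) in the double mutant over Col-0 with total nuclear counts. Over ski2-3 they numbered 1 (ERS2) with both nuclear totals and 3 with organelle genes included or RPKM. In the triple over the double mutant they numbered 1 (EIN2) with each of these 4 scalings. The shares of all genes at 2-fold given above belong to the scaling used here. Over ski2-3 the median of all genes moved by 0.41 with organelle genes included and by 0.40 with RPKM. Nothing particular to the members is read from these counts. At 1.5-fold the counts were 1, 3, 1, 2 and 2, as given above. Members on one side in all 3 pairs numbered 7 of 9 with organelle genes included (54.6% of all genes) and with RPKM (53.0%). When 1 pair was left out they numbered 4 to 7 (54.1% to 62.1% of all genes), with 7 without ein5-1 and Col-0. Members without overlap numbered 2, 1, 4 and 3 with the 4 scalings in the order above, against 13.8%, 9.33%, 20.4% and 19.1% of all genes, and 2 to 3 when 1 pair was left out, against 24.5% to 34.3%. EBF2 was the 1 member past 2-fold from additivity with 3 scalings, not with total nuclear counts. The share of 16.5% of all genes past it belongs to the scaling used here. These scalings also moved all genes, so nothing particular to EBF2 is read from this. Beyond the shift of all genes, the cause was not tested. Depth limits ETR2 and ERS2 most, with 90 to 182 and 118 to 418 reads.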
